A study of Homo sapiens with 9 samples.

Results

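The subject is a stretch of chromosome 20 around CEBPB and PTPN1, from 48.7 to 50.0 Mb on the human build hg19, in the prostate cancer line VCaP and a derivative resistant to enzalutamide. Open chromatin was mapped by ATAC-seq, in which the transposase Tn5 cuts accessible DNA and a peak marks a pile-up of cuts. Peaks of all 9 deposited lists that shared at least 1 base were joined, which gave 94773 regions in the genome, 2780 on chromosome 20 and 89 in this stretch of 1.3 Mb. The stretch was chosen by measured values: several of its regions were called in VCaP16 and not with the solvent. Every value of VCaP16 against VCaP_DMSO below is therefore a description with no test.

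There were 3 groups of 3 libraries. VCaP_DMSO was VCaP given the solvent DMSO. VCaP_ENZ was VCaP given 10 µM enzalutamide, an antagonist of the androgen receptor, for 96 h. VCaP16 was the resistant VCaP line, grown in 16 µM enzalutamide; all 9 libraries carry the genotype label WT. No VCaP16 library was grown without the drug, so line and drug cannot be told apart, and the labels do not say how the line was derived or whether replicates were separate cultures. The p-values thus measure the spread between these libraries, which may be technical. The lists ran from 53646 to 68921 peaks; the longest in each group were VCaP_DMSO replicate 1, VCaP_ENZ replicate 2 and VCaP16 replicate 3. They hold no read counts, so depth is unknown, and a region that was not called is not shown to be closed. No hg19 annotation was used here, so the cells could not be checked against prostate markers, and regions are placed only against the CEBPB and PTPN1 spans, known to the nearest kb.

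CEBPB encodes C/EBP beta, a basic leucine zipper transcription factor that acts in inflammation, differentiation and the response to stress. Androgen receptor signalling has been described as holding it down in prostate cancer cells. PTPN1 encodes PTP1B, a tyrosine phosphatase anchored to the endoplasmic reticulum that takes phosphate off the insulin receptor and JAK2, and that has been described as androgen-regulated in prostate cancer. Promoters of active genes are usually open in most cells, while distal sites more often differ between cell states.

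In the RefSeq gene table, on build GRCh38.p14, the protein-coding neighbours run in the order PEDS1-UBE2V1, UBE2V1, PEDS1, CEBPB, PTPN1, RIPOR3, PARD6B, BCAS4, ADNP, DPM1, MOCS3, KCNG1, NFATC2 and ATP9A. No other protein-coding gene lies between CEBPB and PTPN1 there. Among these neighbours, ADNP is a homeobox protein that works with chromatin remodellers, DPM1 is the catalytic subunit of dolichol-phosphate mannose synthase, and NFATC2 is a calcineurin-dependent transcription factor. Which region belongs to which neighbour was not analysed here.

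The 250 bases before the first RefSeq start of each gene (GRCh38.p14, chromosome 20, plus strand) are shown because the results below describe the regions called at or near these starts. Capitals mark the GC box GGGCGG and the CCAAT box CCAAT, on either strand.
CEBPB: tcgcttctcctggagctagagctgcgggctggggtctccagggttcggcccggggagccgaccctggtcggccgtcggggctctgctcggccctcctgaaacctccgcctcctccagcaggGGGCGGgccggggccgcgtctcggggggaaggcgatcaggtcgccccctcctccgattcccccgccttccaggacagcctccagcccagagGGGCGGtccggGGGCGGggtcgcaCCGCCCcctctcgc
PTPN1: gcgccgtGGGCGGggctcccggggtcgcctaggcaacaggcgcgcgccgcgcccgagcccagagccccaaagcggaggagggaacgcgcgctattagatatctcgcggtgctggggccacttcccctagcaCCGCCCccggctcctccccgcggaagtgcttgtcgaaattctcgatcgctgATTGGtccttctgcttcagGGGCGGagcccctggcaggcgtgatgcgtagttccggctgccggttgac

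Both windows were rich in G and C: 75.6% for CEBPB and 69.2% for PTPN1, against a median of 58.0% over 35116 RefSeq promoter windows of the same length. CEBPB had 4 GC boxes and PTPN1 had 3; 42.6% of all windows hold at least 1. PTPN1 also had 1 CCAAT box, 68 bases before its start, as 32.0% of windows do at any place. Neither window held the C/EBP palindrome TTGCGCAA (0.131% of windows), the cyclic AMP element TGACGTCA (1.65%), its core TGACG (21.2%), the TATA box TATAAA (10.7%) or the AP-1 element TGANTCA (6.57%), searched on both strands with overlaps counted. CEBPB has another start 247 bases downstream. The window before that start held 1 TATAAA, 29 bases before it, 1 TGACG, 57 bases before it, 1 CCAAT and 5 GC boxes.

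At CEBPB, accessible chromatin was called weakly and unevenly. Scores rank peaks within a list, so each peak is given by its position from the top of its own list: 1% is among the strongest, 99% among the weakest. Such positions come from lists of different lengths, so a difference in position between groups does not by itself show a change in accessibility. The start of CEBPB, known to the nearest kb, could lie in, between or beside 2 called regions. The first, chr20:48806690-48807065, was called in VCaP_DMSO replicate 1 at 94.6%, in VCaP_ENZ replicate 2 at 83.9% and in VCaP16 replicate 3 at 91.6%, and in no other library. Those are the libraries with the longest list in each group; the part of list length in this was not tested. The other, chr20:48807323-48807547, was called in VCaP_DMSO replicate 2 alone, at 89.2%.

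The best-called CEBPB region, chr20:48808242-48808650, lay inside the gene's span. In VCaP_DMSO it stood at 61.2%, 51.1% and 68.2% in replicates 1 to 3. With short drug exposure it was called in replicate 2 (53.2%) and replicate 3 (72.8%), and in VCaP16 in replicate 1 (71.8%) and replicate 3 (60.1%). All 7 calls stood below the middle of their lists, and the groups overlapped. The neighbouring region chr20:48808847-48809000 was called in VCaP_DMSO replicate 2 alone (53.6%). About 4 kb before the gene, chr20:48802665-48803059 was called in all VCaP_DMSO libraries (46.7%, 69.1% and 85.3%), in VCaP_ENZ replicate 2 (59.4%) and in VCaP16 replicates 1 (54.3%) and 2 (35.3%). No region touching CEBPB or within 10 kb of it was called in every VCaP16 library.

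At PTPN1, the start lay in chr20:49126396-49127872, a region of 1477 bp called in every library. Its positions were 11.5%, 16.4% and 17.3% in VCaP_DMSO, 22.4%, 22.3% and 17.3% in VCaP_ENZ, and 20.05%, 33.7% and 14.1% in VCaP16. The called part measured 804, 793 and 1293 bp with the solvent, 861, 767 and 905 bp with short drug exposure, and 1089, 1289 and 1030 bp in the resistant line. VCaP16 overlapped both other groups in position and VCaP_DMSO in width, while each of its libraries had a wider called part than every VCaP_ENZ library. VCaP_DMSO and VCaP_ENZ overlapped in width but only met in position, at 17.25% and 17.27%. How many regions of the genome show such separations of groups was not counted, here or below. The PTPN1 start region stood in the upper part of every list. By contrast, the 2 regions nearest the rounded CEBPB start were called in 3 libraries and in 1, at 83.9% to 94.6%. Further inside the CEBPB span, chr20:48808242-48808650 was called in 7 libraries, at 51.1% to 72.8%.

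Within the PTPN1 span a further 6 regions were called, and 1 of them in every library. That region, chr20:49193752-49194126, stood at 34.98%, 71.6% and 68.1% in VCaP_DMSO, at 78.2%, 65.2% and 50.7% in VCaP_ENZ, and at 42.02%, 28.9% and 31.5% in VCaP16. Each VCaP16 library stood higher in its list than every VCaP_ENZ library, and VCaP_DMSO overlapped both, with its replicate 1 among the VCaP16 values. Just before it, chr20:49192447-49192718 was called in VCaP_DMSO replicate 2, in VCaP_ENZ replicates 1 and 2 and in VCaP16 replicates 2 and 3, at 31.2% to 58.4%. A region at chr20:49187089-49187308 was called only in VCaP16 replicates 2 (57.9%) and 3 (46.5%).

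Of the remaining PTPN1 regions, chr20:49154838-49155505 was called in 2 of 3 VCaP_DMSO, 2 of 3 VCaP_ENZ and all 3 VCaP16 libraries, at 40.3% to 80.9%. The region chr20:49132536-49133148 was called once per group, again in the longest list of each, at 76.7% to 78.4%. VCaP_DMSO replicate 1 alone called chr20:49196611-49196852 (70.8%). Within 10 kb beyond the gene, chr20:49208668-49209531 was called in all 9 libraries, at 30.8% to 49.9%, and chr20:49204686-49204895 in VCaP16 replicate 2 alone.

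**Figure D1:**
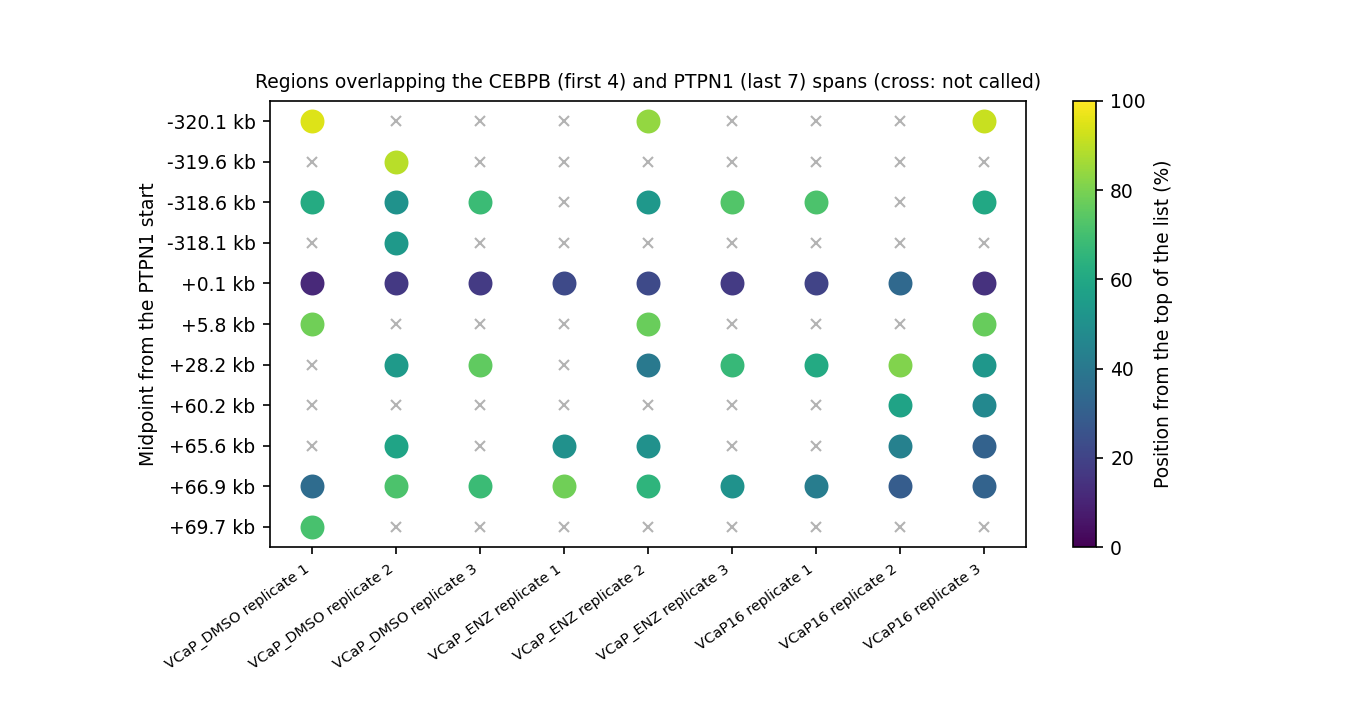
Position of each peak from the top of its library's list (colour, %) in the 4 regions overlapping the CEBPB span and the 7 overlapping the PTPN1 span (rows, by distance of the midpoint from the PTPN1 start in kb), with a cross where no peak was called. The PTPN1 start region (+0.1 kb) was called in all 9 libraries at 11.5% to 33.7%. Of the regions overlapping the CEBPB span, the first (-320.1 kb) was called in 3 of 9 and that at -318.6 kb in 7 of 9.

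Over the whole stretch, 27 of the 89 regions (30.3%) were called in all 9 libraries, against 34.9% of regions in the genome, and 24 (27.0%) in a single library, against 22.6%. The other 38 were called in 2 to 8 libraries. The 27 shared regions had a median width of 697 bp and a median position of 24.9%, against 222 bp and 85.2% for the 24 seen once. In the genome the regions called in all 9 had a median width of 838 bp. By midpoint, 15 regions lay below CEBPB, 3 in its span, 16 between CEBPB and PTPN1, 7 in the PTPN1 span and 48 above PTPN1, or 14.02, 5.03, 9.46 and 6.01 regions per 100 kb in the 4 zones outside the short CEBPB span. The 318 kb between the genes held only 2 of the 27 shared regions, while the 107 kb below CEBPB held 7.

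The strongest shared region, chr20:49999421-50000248, lay across the upper edge of the stretch and stood at 1.1% to 2.9% in all lists. Next came chr20:49511754-49512342 (3.7% to 8.1%), chr20:49031701-49032641 (2.7% to 10.7%), 94.4 kb before PTPN1, and chr20:49240939-49241635 (6.1% to 16.6%), 39.9 kb beyond it. The widest, chr20:49346939-49348695 at 1757 bp, stood at 7.2% to 23.9%. In 4 of these 5 regions the ranges of the groups overlapped. The exception was chr20:49511754-49512342, at 3.72% to 4.87% in VCaP_DMSO, 4.88% to 5.83% in VCaP16 and 6.67% to 8.08% in VCaP_ENZ. There VCaP_DMSO and VCaP16 all but met. The share of regions in the genome whose groups separate in this way was not counted. Width and position did not always go together: chr20:49574476-49575883, the third widest at 1408 bp, was missing from VCaP16 replicate 1 and stood at 54.6% to 92.1% elsewhere. The other wide regions, chr20:49411173-49412319 (1147 bp) and chr20:49547732-49548791 (1060 bp), were called everywhere, at 23.2% to 75.8% and 17.8% to 56.1%.

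At the lower edge, the first region inside, chr20:48701909-48702612, and the nearest outside, chr20:48687627-48688312, were both called in all 9 libraries. So were the last inside and the nearest beyond, chr20:50072882-50073537.

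**Figure D2:**
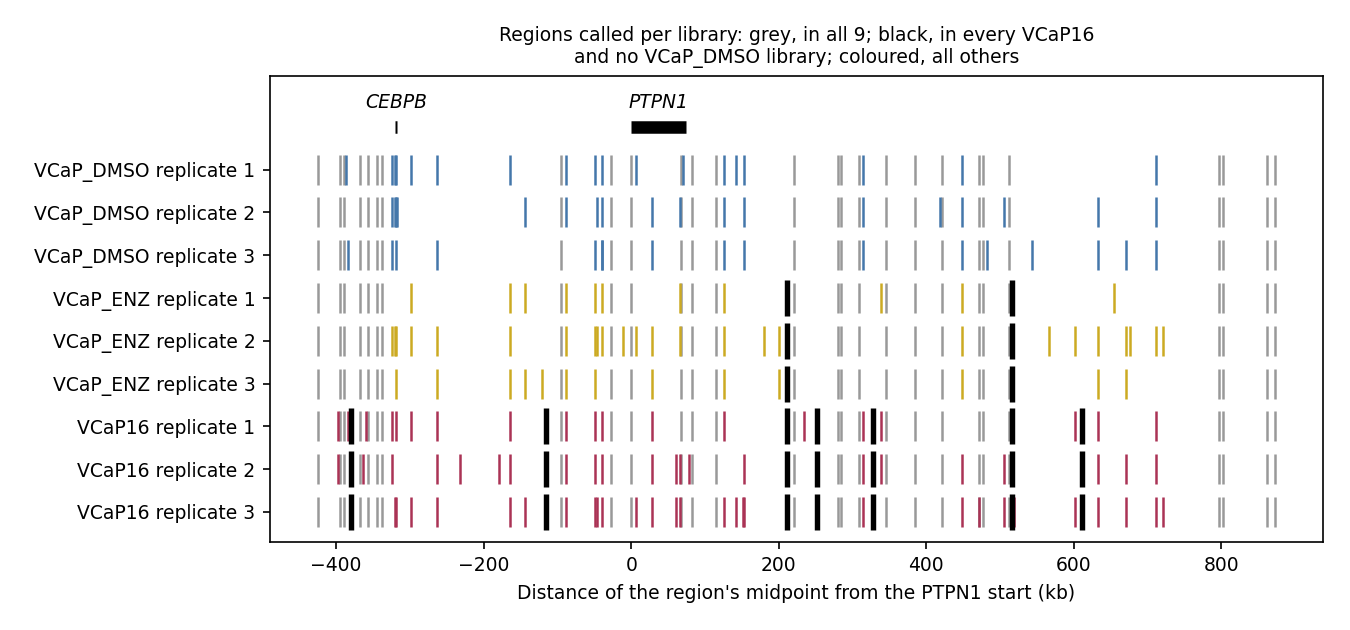
Regions called in each library (rows), by distance of the midpoint from the PTPN1 start (kb), with the CEBPB and PTPN1 spans above; grey ticks are the 27 regions called in all 9 libraries, black ticks the 7 called in every VCaP16 and no VCaP_DMSO library, coloured ticks the rest. The black ticks are spread over the stretch, 1 below CEBPB, 1 between the genes and 5 above PTPN1.

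The resistant line called more of the stretch than the solvent group. VCaP_DMSO libraries called 45, 45 and 44 regions, VCaP_ENZ libraries 40, 54 and 42, and VCaP16 libraries 53, 57 and 62. Means were 44.7 ± 0.577, 45.3 ± 7.57 and 57.3 ± 4.51 (SD, n = 3 each). The VCaP16 libraries all lay above the VCaP_DMSO libraries, which the choice of the stretch favours, and overlapped VCaP_ENZ through its replicate 2. Per 10000 peaks of each list, the counts were 7.80, 8.22 and 8.18 in VCaP_DMSO, 7.40, 8.75 and 7.83 in VCaP_ENZ, and 9.15, 9.95 and 8.996 in VCaP16. On this scale each VCaP16 library lay above every other library, which the choice of the stretch also favours. Scaling by list length does not undo that choice.

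Short exposure to the drug was compared with the solvent by a two-sided exact permutation test over 20 splits of 3 against 3 libraries, which cannot give a p below 0.1. The stretch was chosen on calls in VCaP16 and VCaP_DMSO, so this contrast shares a group with that choice, and counts of VCaP16 against VCaP_ENZ are given with no test. VCaP_ENZ called 0.667 more regions than VCaP_DMSO (exact permutation p = 1.0, also after Benjamini-Hochberg adjustment over 6 tests), a difference within the replicate spread. It was 3.33 without VCaP_ENZ replicate 1, -3.67 without replicate 2, 2.33 without replicate 3 and 0.333 without VCaP_DMSO replicate 3. VCaP16 called 12 more regions than VCaP_ENZ, and all 3 of its libraries lay above 2 of the 3 VCaP_ENZ libraries. The choice of the stretch favours this too.

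**Figure D3:**
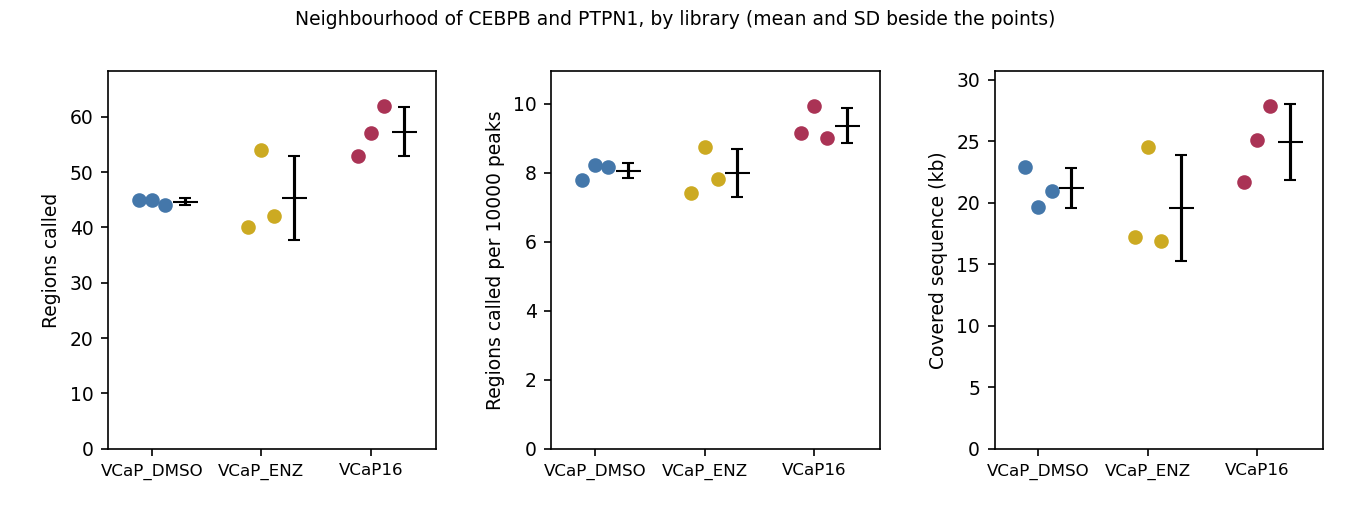
Regions called, regions called per 10000 peaks of the list and covered sequence (kb) in the stretch for each library (points), with the mean and SD of each group of 3 (bars). VCaP16 libraries called 53 to 62 regions and VCaP_DMSO libraries 44 or 45, while VCaP_ENZ ran from 40 to 54.

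Covered sequence was also highest on average in VCaP16, with more overlap between groups. It was 22.9, 19.7 and 21.0 kb in VCaP_DMSO, 17.2, 24.5 and 16.9 kb in VCaP_ENZ, and 21.7, 25.1 and 27.9 kb in VCaP16. Over the genome, peaks covered a mean of 28.6 Mb in VCaP_DMSO, 28.3 Mb in VCaP_ENZ and 31.3 Mb in VCaP16. The part of this genome-wide difference in the values for the stretch was not tested. In the stretch, VCaP_ENZ minus VCaP_DMSO was -1601 bases, given with no test because absent VCaP_DMSO calls chose the stretch. Without VCaP_ENZ replicates 1, 2 and 3 in turn it was -436, -4087 and -281 bases, and without VCaP_DMSO replicate 1 it was -744 bases. VCaP16 minus VCaP_ENZ was 5341 bases, given with no test because the choice of the stretch favours VCaP16. Widths within the 27 shared regions were set against the genome: divided by the library's mean width over all regions shared by the 9 libraries, they averaged 0.841 ± 0.0326 for VCaP_DMSO, 0.826 ± 0.0228 for VCaP_ENZ and 0.842 ± 0.047 for VCaP16 (SD, n = 3 each). The differences of -0.015 and 0.0164 between successive groups had exact permutation p-values of 0.6 and 0.7 (both 0.84 adjusted). The first was -0.0078 without VCaP_DMSO replicate 1, -0.0377 without VCaP_DMSO replicate 2 and -0.0276 without VCaP_ENZ replicate 2. The second was 0.0288 without VCaP_ENZ replicate 2, and 0.0291, -0.00659 and 0.0354 without VCaP16 replicates 1, 2 and 3 in turn. Peaks at shared places were thus 0.826 to 0.842 times as wide here as in the genome in each group.

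By zone, the counts differed most in number above PTPN1, the longest zone at 799 kb and the one with most regions, 48. They were 22, 24 and 25 regions in VCaP_DMSO, 22, 29 and 23 in VCaP_ENZ, and 28, 31 and 35 in VCaP16. Between the genes they were 8, 6 and 6, then 8, 10 and 8, then 9, 10 and 11. In both zones every VCaP16 count exceeded every VCaP_DMSO count, while VCaP_ENZ overlapped VCaP16 in both. The choice of the stretch favours this separation from VCaP_DMSO. Of the regions called in every VCaP16 and no VCaP_DMSO library, 5 lay above PTPN1 and 1 between the genes. In the PTPN1 span the groups overlapped, at 3 to 4, 3 to 5 and 3 to 6 regions. They also overlapped below CEBPB, at 8 to 10, 7 to 9 and 9 to 12 regions, and in the CEBPB span, at 1 to 3, 0 to 1 and 0 to 1.

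The 7 regions called in all of VCaP16 and none of VCaP_DMSO make up 7.87% of the stretch, against 1.63% of all regions in the genome. The choice of the stretch fixed the direction of this difference. No region was called in all of VCaP_DMSO and none of VCaP16, a pattern that 0.532% of regions have. Regions called in more VCaP16 than VCaP_DMSO libraries numbered 32 (36.0%, background 30.1%), and those called in fewer numbered 14 (15.7%, background 17.1%).

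Of the 5 that no VCaP_ENZ library called, the one standing highest in the VCaP16 lists was chr20:48747623-48747838, 59.2 kb below CEBPB and 216 bp wide. It stood at 25.6%, 37.0% and 18.6% in VCaP16 replicates 1 to 3, with 173, 198 and 203 bp called. It kept its pattern with a minimum score of 5, an overlap of 50%, lists of equal length and merging within 100 bp. The region chr20:49338320-49338763, 137.3 kb beyond PTPN1, was also called after short exposure. It stood at 87.7%, 70.4% and 53.7% in VCaP_ENZ and at 30.9%, 22.3% and 20.6% in VCaP16, with 165, 244 and 260 bp called against 439, 325 and 444 bp. Here the libraries of VCaP16 did not overlap those of VCaP_ENZ in position or width. The region was listed for its VCaP16 calls, and the share of regions in the genome with such a separation was not counted.

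The other region shared with short exposure, chr20:49642723-49643212, did not differ in that way. It stood at 88.01%, 76.0% and 42.6% in VCaP_ENZ and 49.2%, 50.7% and 59.1% in VCaP16, so the groups overlapped. These 2 regions are also the only ones called in every VCaP_ENZ and no VCaP_DMSO library (2.25% of the stretch, background 0.653%), and both comparisons use the same VCaP_DMSO libraries, so the choice of the stretch favours this share.

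The remaining 4 were weak and absent from VCaP_ENZ. In VCaP16 replicates 1 to 3, chr20:49378192-49378506 stood at 71.6%, 65.3% and 51.0%. Between the genes, chr20:49011779-49012212 stood at 88.2%, 81.6% and 33.0%. In that region replicate 3, the longest list, stood far above the other two. The regions chr20:49454224-49454470 (78.3%, 87.5% and 62.4%) and chr20:49738448-49738910 (83.8%, 81.4% and 76.0%) stood low in all 3 lists. With a score of at least 5, 4 of the 7 kept the pattern, and these last 3 regions lost it. With an overlap of 50%, 5 of the 7 kept it, and chr20:49642723-49643212 and chr20:49738448-49738910 lost it. None of the 7 touched CEBPB, PTPN1 or the 10 kb around them.

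**Figure D4:**
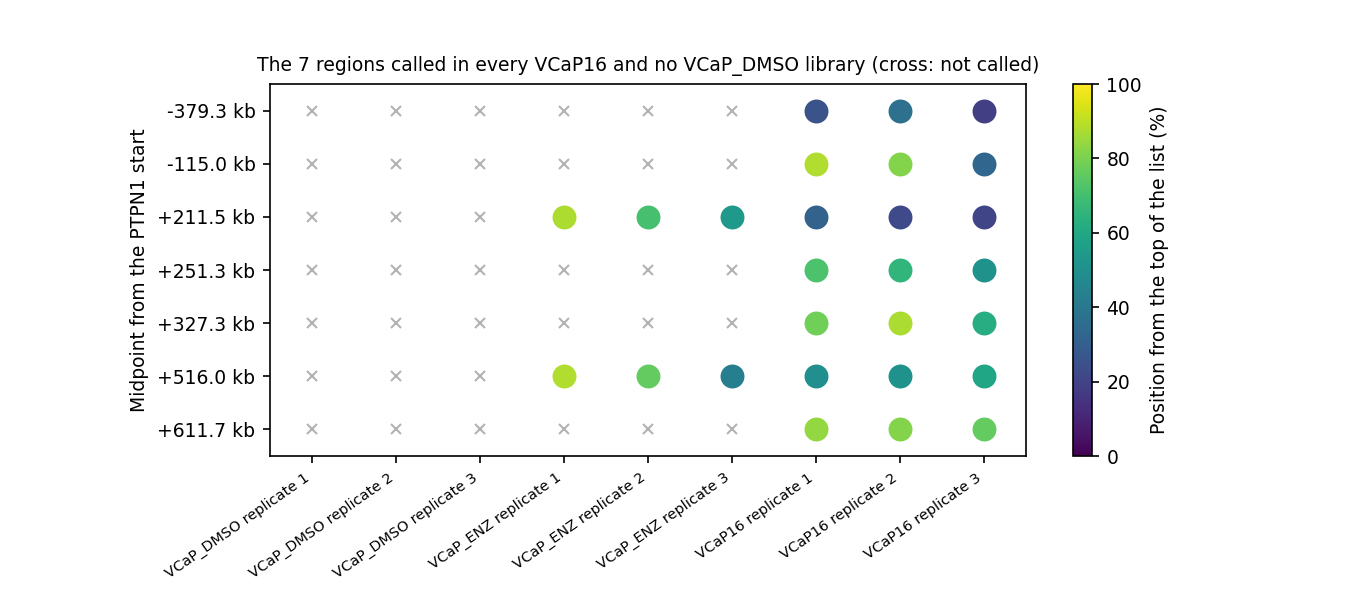
Position from the top of each list (colour, %) for the 7 regions called in every VCaP16 and no VCaP_DMSO library, in rows by distance of the midpoint from the PTPN1 start (kb), with a cross where no peak was called. The rows at +211.5 and +516.0 kb were called in all VCaP_ENZ libraries too, and the other 5 rows in none.

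Against short exposure, 6 regions appeared in each VCaP16 list and in none of VCaP_ENZ (6.74%, background 1.13%), and 0 in the reverse direction (background 0.410%). Of the 6, 5 are among the 7 on which the stretch was chosen, so the choice favours this share over the background. The other, chr20:49440752-49441137, was called in all VCaP_DMSO libraries as well, at 98.4%, 77.7% and 94.3%, and in VCaP16 at 63.7%, 81.2% and 42.3%. It thus dropped out of the lists with short exposure and was present in both other groups. A second region of that kind, chr20:49279832-49280222, was called in all VCaP_DMSO libraries (71.3%, 86.1% and 84.0%), in no VCaP_ENZ library and in VCaP16 replicates 2 (83.1%) and 3 (76.9%). These are the 2 regions called with the solvent and not with short exposure (2.25%, background 0.557%). All of their VCaP_DMSO calls were weak, and neither kept the pattern with a score of at least 5.

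Counting libraries rather than full patterns, regions called in more VCaP_ENZ than VCaP_DMSO libraries numbered 19 (21.3%, background 21.5%) and the reverse 17 (19.1%, background 19.7%). Both shares were close to those of the genome. Regions called in more VCaP16 than VCaP_ENZ libraries numbered 30 (33.7%, background 29.0%), and the reverse 11 (12.4%, background 17.3%), a balance that the choice of the stretch also favours.

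Chromosome 20 was cut into bins of 1.3 Mb, and the 46 with at least 20 regions were compared. The stretch held the most regions called in all of VCaP16 and none of VCaP_DMSO, with 7 of 89, which its choice favours. The flanks of the same length held 1 of 84 below and 2 of 49 above. In 3 bins the share of regions called ran most like that of the stretch over the 9 libraries. They lay at 59.1 to 60.4 Mb (Pearson r = 0.943), 39.6 to 40.9 Mb (0.914) and 43.5 to 44.8 Mb (0.904). The correlations describe 9 points that share their libraries and list lengths. These bins held 3 of 50, 3 of 49 and 2 of 76 regions of the VCaP16 and not VCaP_DMSO pattern (6.0%, 6.12% and 2.63%). The share was 7.87% in the stretch and 6.41% (5 of 78) in the bin at 31.8 to 33.1 Mb.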

How the data were processed

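The authors deposited 1 peak list per library, each with position and score; per the submitters' processing notes BWA 0.7.15-r1140, MACS2 2.2.7.1, HOMER 3.12 and the build hg19 were used, with no roles or settings. Read filters and any Tn5 shift are not given in the sources used here. Per the labels' protocols, cells for bulk libraries were fixed in 1% formaldehyde; a single-cell preparation is described too, and the lists were treated as bulk. The authors' deposited score served for ranks and filters inside 1 list and nothing else; its scale is not stated, and it was never below 2.0.

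Peaks on chromosomes 1 to 22 and X were joined at an overlap of at least 1 bp, and a region was called in a library where any peak touched it. The window and gene spans come from the definition of the stretch. The members and lists were chosen with earlier results of these data known. Named regions are those within 10 kb of either gene, those present in a whole group and absent from a whole other group, the 5 strongest and 5 widest, and those at the edges. Background shares are over 94773 regions genome-wide. Exact tests of region counts and covered bases for VCaP16 against VCaP_ENZ were planned and stay in the adjustment, but are not reported, because VCaP16 calls chose the stretch. Counting was tested on simulated lists. Python 3.11.15, numpy 2.4.6 and pandas 2.3.3 were used. Other settings were a minimum score of 5, lists of equal length, an overlap of 50%, merging within 100 bp, regions that 2 or more libraries of a group share, counts per 10000 peaks, leaving out libraries and the replicate number as a block; removing both of the longest lists was added after seeing the data. Promoter letters are from RefSeq (GRCh38.p14), and both genes were matched by symbol.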

Additional observations from a re-analysis of the deposited data

How the results depend on the processing

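Of 177 recomputed values, 160 kept their direction or stayed near the reported value, 11 moved further and 6 changed sign. The difference in regions called between VCaP_ENZ and VCaP_DMSO changed sign to -0.667 with lists of equal length, -3.67 with an overlap of 50%, -0.0737 per 10000 peaks and -3.67 with both longest lists removed, and ran from -3.67 to 3.33 with single libraries left out. The difference in covered bases between VCaP_ENZ and VCaP_DMSO ran from -4087 to -281 with single libraries left out and was -2583 with an overlap of 50%, and their difference in relative width ran from -0.0377 to -0.0078 and was -0.0263. The relative width of VCaP16 minus VCaP_ENZ ran from -0.00659 (without VCaP16 replicate 2) to 0.0354 and was 0.048 with both longest lists removed. With a minimum score of 5, the regions in VCaP16 and not VCaP_DMSO numbered 4, those in VCaP16 and not VCaP_ENZ 3, and those in VCaP_ENZ and not VCaP_DMSO, or the reverse, 0. With an overlap of 50% the last 2 numbered 0 and 1. The regions in VCaP_DMSO and not VCaP_ENZ numbered 1 with lists of equal length, 4 with both longest lists removed, and 2 to 4 with single libraries left out. Those in VCaP_ENZ and not VCaP16 numbered 0 to 1 with single libraries left out and 1 with both longest lists removed. The cause was not tested. With a replicate block, the difference of 0.667 regions between VCaP_ENZ and VCaP_DMSO gave p = 1.0 by exact permutation of 8 exchanges, which cannot go below 0.25. Same-numbered libraries did not deviate together (r from -0.00478 to 0.0102 across regions, against -0.0131 to 0.0069 for libraries with different numbers). This gave no sign of pairing by number, but cannot show that the replicates shared no culture or batch. Without counts, depth limits every absence of a call.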
